A study of Homo sapiens with 6 samples.

Results

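The genes described here are those of the integrated stress and amino acid response. They were chosen by symbol from a list of 40 genes, of which 39 have a row among the 60546 gene identifiers of the deposited table; INHBE-AS, the other listed entry, has none. All 39 passed the filter on low values. The data are 6 RNA-seq libraries labelled HCT-116, an established human colon carcinoma line. Whether the cells of both labels are HCT-116 was not tested here. Every library came from cells labelled colon and wild type, grown in DMEM with fetal bovine serum, infected with the PMSCV vector and selected as stable lines with puromycin. In 3 libraries the vector carried human GOLPH3 cDNA, which codes for a Golgi phosphoprotein, and in 3 it was empty (Vector). The study took each label's cells from different generations of 1 stable line; whether a line is 1 clone was not given in the sources used here. Each title also carries a number after the letter P: 8, 12 and 13 for the GOLPH3-labelled libraries, and 11, 12 and 13 for the Vector-labelled ones. The labels do not say what P stands for. The generations of a label belong to 1 line, and nothing says that they were grown as independent cultures. The p-values therefore measure only the spread between these samples, and part of that spread may be technical. Since P12 and P13 each occur once under each label, a difference between them can be separated from the label, whereas P8 occurs only with GOLPH3 and P11 only with Vector.

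The integrated stress response is the route by which cells answer amino acid shortage, endoplasmic reticulum stress, viral RNA or haem shortage. A set of kinases phosphorylates the translation factor eIF2, general translation slows, and the mRNA of the transcription factor ATF4 is translated more. ATF4, usually paired with a C/EBP protein, then switches on genes for amino acid synthesis, amino acid uptake, tRNA charging and, through DDIT3 and TRIB3, feedback and cell death. Much of ATF4's control is at translation, which RNA-seq does not measure.

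The values are reads divided by a size factor for each library, called normalized reads here. They depend on transcript length and are compared only between libraries, never between genes. Recovered read totals were 15708846 to 21900764 per library, and a count of 3 reads, the limit that a count of 0 allows, equals 2.47 to 3.29 normalized reads (counting error only). The GOLPH3 transcript was not higher under its label: 1629.5, 1383 and 1272 normalized reads in the GOLPH3-labelled P8, P13 and P12 libraries against 1892, 1472 and 1968 in the Vector-labelled P11, P13 and P12 libraries (log2 difference -0.31, SE 0.27, limma adjusted p = 0.609), so the groups are named here by their labels and every direction by label rests on the labels alone. Of the 8 colon epithelial markers checked, EPCAM, KRT8, KRT18, KRT19 and CDH1 were abundant in every library, while CDH17, VIL1 and LGALS4 lay at 0 to 9.66 normalized reads. These markers also differed by label: all 8 log2 differences were positive, with a median of 1.24, limma called KRT18 and KRT19 higher under GOLPH3, 6 of 8 had no overlap, and the sum of the 8 was 62588 to 134064 normalized reads under GOLPH3 against 29599 to 40258 under Vector. A list of 8 genes chosen because earlier results of these data showed them in the Vector-labelled libraries (VIM, CDH2, ZEB2, IRS4, UCHL1, HAND1, HOXD13, ROBO1) summed to 7.51 to 42.9 normalized reads under GOLPH3 and to 5745 to 17223 under Vector. All 8 were lower in the GOLPH3-labelled libraries by limma. In bulk RNA, fewer cells of a type and less RNA per cell cannot be told apart.

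Most of the response genes had the same order of P classes under both labels, which was not the order of the numbers. In 32 of the 39 members the P12 library was the highest of its label, both for GOLPH3 and for Vector, against 14.0% of the 26536 genes tested. In 25 members the order ran P12, then P13, then P8 or P11 under both labels, against 5.05% of genes tested and 6.27% of the 16949 genes with a mean of at least 10 normalized reads. The P12 pair lay above all other 4 libraries in 21 members (6.74% of genes), and P8 and P11 were the lowest pair in 25 (11.2%). Together the 39 members took 1.66% of normalized reads in the GOLPH3-labelled P12 library and 1.20% in the Vector-labelled one. The same share was 0.884% and 0.785% in the P13 libraries, 0.682% at P8 and 0.511% at P11.

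**Figure D1:**
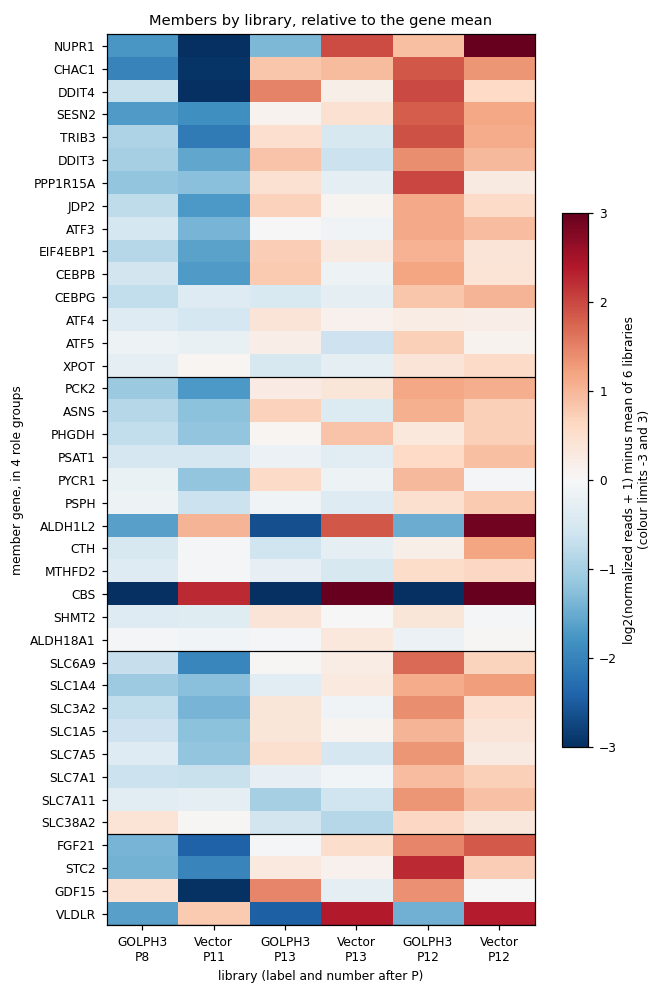
Each row is 1 of the 39 member genes and each column 1 library, ordered P8, P11, P13, P13, P12, P12; colour gives log2(normalized reads + 1) minus the gene's mean over the 6 libraries, with lines between the 4 role groups (regulators, synthesis, transport, secreted proteins and receptors). Most rows pass from blue at P8 and P11 to red at P12, while CBS, ALDH1L2 and VLDLR divide by label.

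The test by P number given here used 3 classes, with label as a covariate: P12 (2 libraries), P13 (2 libraries), and P8 with P11. The last class joins different P numbers. The fit leaves 2 residual degrees of freedom per gene, to which limma adds a spread shared across genes. The planned P12 comparison instead set the P12 pair against the other 4 libraries and called 0 members by limma, as described below. The contrasts of P12 with single classes were put first after the data were seen. Earlier results of these data had also pointed to P12. Against P8 and P11, 32 members rose at P12 and 0 fell at a limma adjusted p under 0.05 over all genes, where 6.08% of genes rose and 3.4% fell (9.19% rose among genes with a mean of at least 10). The members' median log2 difference was 1.62, beside 0.04 over all genes. At P13 against P8 and P11, 23 members rose and SLC38A2 fell, with 10.0% and 6.84% of genes called (15.2% higher among genes with a mean of at least 10) and medians of 1.16 for the members and 0.06 for all genes. At P12 against P13, 17 members rose and 0 fell, with 1.88% and 1.52% of genes called and medians of 0.85 and -0.02. The shared classes tie these contrasts together, so they are not independent of each other. The share of mitochondrial reads also differed between libraries: it was 9.97% at P8 and 9.88% at P11, the highest of the 6 libraries, against 4.41% and 7.08% at P12 (GOLPH3-labelled, then Vector-labelled) and 9.75% and 4.71% at P13, and its part in these results was not tested.

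The genes called at P12 stand in every role. Against P8 and P11, 14 of 15 regulators, 8 of 12 synthesis genes, 7 of 8 transporters and 3 of 4 genes for secreted proteins and a receptor rose. At P13 against the same libraries the counts were 11, 5, 5 and 2, with 1 transporter lower. The members not called at P12 against P8 and P11 were ATF5, SHMT2, ALDH1L2, ALDH18A1, SLC38A2, VLDLR and CBS, which a p over the threshold does not show to be unchanged.

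**Figure D2:**
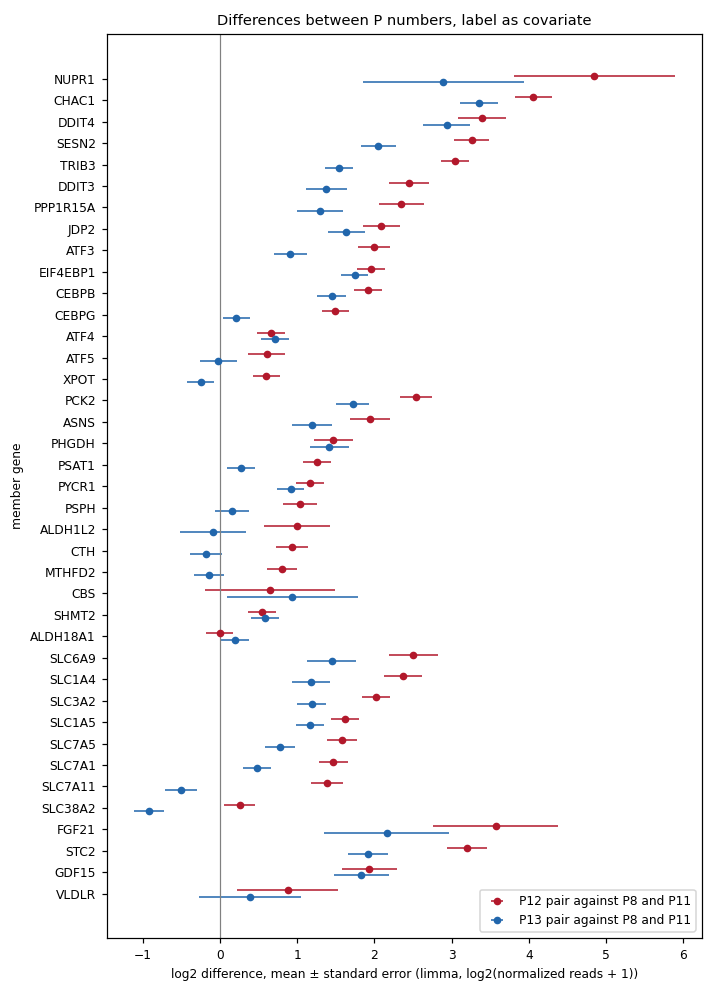
Points are log2 differences from the 3-class limma fit for each of the 39 members, ± standard error, with the P12 pair against P8 and P11 in red and the P13 pair against P8 and P11 in blue. The red point lies right of the blue one for most members, and CHAC1 reaches 4.06 and 3.35, whereas for SLC38A2 the P13 point lies at -0.92.

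Values in each library are given below in the order P8, P13 and P12 for the GOLPH3-labelled libraries and P11, P13 and P12 for the Vector-labelled ones. Before the comparison by label, a bracketed log2 difference is for P12 against P8 and P11 unless another contrast is named. ATF4 (ENSG00000128272, chr22:39519695-39522685, GRCh38 with GENCODE 29 positions), the transcription factor at the centre of the response, had 7189, 12291 and 10966 normalized reads in the GOLPH3-labelled libraries and 6552, 10232 and 10761 in the Vector-labelled ones. Its P12 and P13 libraries were alike, and both lay above P8 and P11 (log2 difference 0.66, SE 0.18, limma adjusted p = 0.0399 for P12; log2 difference 0.71, SE 0.18, limma adjusted p = 0.0194 for P13). Within a label, ATF4 mRNA differed by at most 1.71-fold between P numbers. DDIT3, also called CHOP, a C/EBP-related factor that promotes cell death, had 288, 1033 and 1499 normalized reads in the GOLPH3-labelled libraries and 194, 367 and 1119 in the Vector-labelled ones. P12 was highest under each label (log2 difference 2.45, SE 0.26, limma adjusted p = 0.00028 against P8 and P11). The GOLPH3-labelled P13 library came close to the P12 pair. Part of DDIT3 (ENSG00000175197, chr12:57516588-57521737) overlaps MARS1 and MBD6 on the opposite strand. MARS1 is a gene with a mean of 5973 normalized reads that itself was higher at P12. Without a stated strand setting reads of the shared stretch cannot be told apart.

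ATF3, a stress-induced transcription factor downstream of ATF4, had 2719, 3902 and 8660.0 normalized reads in the GOLPH3-labelled libraries and 1489.9, 3678 and 7463 in the Vector-labelled ones. Both P12 libraries exceeded all others (log2 difference 2.0, SE 0.21, limma adjusted p = 0.000258). TRIB3, a pseudokinase that binds and restrains ATF4, had 1233, 3343 and 8844 normalized reads in the GOLPH3-labelled libraries and 539, 1699 and 5131 in the Vector-labelled ones. The order was P12, P13 and then P8 or P11 under both labels, and the fold of P12 over the lowest class was 7.17 for GOLPH3 and 9.52 for Vector (log2 difference 3.04, SE 0.18, limma adjusted p = 1.02e-05). CHAC1 (ENSG00000128965, chr15:40952962-40956519), an enzyme that degrades glutathione, had 177, 1267 and 2611 normalized reads in the GOLPH3-labelled libraries and 93.1, 1377 and 1783 in the Vector-labelled ones. P8 and P11 were set apart from the other 4 libraries, with P12 over P8 at 14.7-fold and P12 over P11 at 19.1-fold (log2 difference 4.06, SE 0.24, limma adjusted p = 1.02e-05), while P12 against P13 missed the threshold (limma adjusted p = 0.142).

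SESN2, a leucine sensor that inhibits mTORC1, had 696, 2441 and 8005 normalized reads in the GOLPH3-labelled libraries and 627, 3072 and 5006 in the Vector-labelled ones. It followed the same order (log2 difference 3.26, SE 0.23, limma adjusted p = 2.18e-05). DDIT4, another mTORC1 inhibitor, also known as REDD1, had 1228, 5482 and 7703 normalized reads in the GOLPH3-labelled libraries and 167, 2199 and 2962 in the Vector-labelled ones. The Vector-labelled P11 library was by far the lowest, and P12 against P13 was not called (log2 difference 3.4, SE 0.31, limma adjusted p = 0.000109 against P8 and P11; limma adjusted p = 0.482 against P13). PPP1R15A, the phosphatase subunit GADD34 that reverses eIF2 phosphorylation, had 1598, 4981 and 14358 normalized reads in the GOLPH3-labelled libraries and 1511, 2922 and 4365 in the Vector-labelled ones. Its highest library was the GOLPH3-labelled P12, above every other library by a wide margin (log2 difference 2.35, SE 0.29, limma adjusted p = 0.000691).

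CEBPB, a C/EBP partner of ATF4, had 1188, 3008 and 3932 normalized reads in the GOLPH3-labelled libraries and 534, 1565 and 2301 in the Vector-labelled ones. JDP2, a bZIP repressor, had 172, 472 and 639.9 normalized reads in the GOLPH3-labelled libraries and 87.6, 311 and 431 in the Vector-labelled ones. EIF4EBP1, the translation repressor 4E-BP1, had 914, 2763 and 3401 normalized reads in the GOLPH3-labelled libraries and 537, 1994 and 2162 in the Vector-labelled ones. In all 3 the P8 and P11 libraries were lowest and the P12 pair highest within its label, with log2 differences of 1.92, 2.09 and 1.95 against P8 and P11 (limma adjusted p = 0.000134, 0.000447 and 0.000115). CEBPG, a C/EBP factor that pairs with ATF4, had 1455, 1794 and 4369 normalized reads in the GOLPH3-labelled libraries and 1870.0, 2029 and 4930.3 in the Vector-labelled ones. Here P13 stood near P8 and P11 and only the P12 pair was set apart (log2 difference 1.49, SE 0.17, limma adjusted p = 0.000491). XPOT, which exports tRNA from the nucleus, had 3827, 3349 and 6104 normalized reads in the GOLPH3-labelled libraries and 4817, 3886 and 6959 in the Vector-labelled ones, with P12 highest and P13 lowest under each label (log2 difference 0.60, SE 0.17, limma adjusted p = 0.0484).

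ATF5, a bZIP factor translated much as ATF4 is, had 385, 495 and 709 normalized reads in the GOLPH3-labelled libraries and 369, 279 and 464 in the Vector-labelled ones and was not called (log2 difference 0.60, SE 0.24, limma adjusted p = 0.14). It overlaps NUP62 on the opposite strand, which had a mean of 1911 normalized reads. NUPR1, a small stress-induced chromatin protein, had 2.15, 3.2 and 19.0 normalized reads in the GOLPH3-labelled libraries and 0, 40.3 and 129.7 in the Vector-labelled ones. The Vector-labelled P11 library had 0 reads and the GOLPH3-labelled P8 and P13 libraries at most 3, at the limit that a count of 0 allows, so no fold is given for it; the P12 library was the highest under each label.

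Some promoters of the members hold the letters of the C/EBP-ATF response element, the composite site that an ATF4 and C/EBP pair binds. RefSeq promoter windows (GRCh38.p14, 250 bases before to 50 after each start) were matched by symbol for 32 of the 39 members. The letters TGATGNAA, searched on both strands, occurred in windows of 10 of these 32 genes (31.2%) and in 4.46% of the 27305 genes with a window. The matches of SLC1A4, SLC3A2 and SLC7A1 reached past the start and are not shown. The members were listed as ATF4 targets and genes of amino acid synthesis and transport, so a higher share can follow from that choice alone. Whether the letters relate to the P number pattern was not tested, and a match is not evidence of binding. Capitals mark the matched letters; each stretch runs 5′ to 3′ along the gene, and 28 bases are shown in place of 80 where the 80 overlap a UTR annotated in GENCODE 29. The start is that of the RefSeq window, which need not be the start in GENCODE 29: there the stretches of CHAC1, ASNS, SLC1A5, CEBPG and JDP2 lie within or overlap the gene, with all 80 bases in a UTR for CHAC1 and ASNS and 38 of 80 for SLC1A5, and those of ATF3 and FGF21 overlap no gene. The positions are chr15:40953252-40953279 on the plus strand for CHAC1, chr1:212565180-212565259 on the plus strand for ATF3, chr19:33374033-33374112 on the plus strand for CEBPG, chr14:75427942-75428021 on the plus strand for JDP2, chr7:97872459-97872486 on the minus strand for ASNS, chr19:46784894-46784921 on the minus strand for SLC1A5 and chr19:48755434-48755513 on the plus strand for FGF21.
CHAC1: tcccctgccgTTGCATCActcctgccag
ATF3: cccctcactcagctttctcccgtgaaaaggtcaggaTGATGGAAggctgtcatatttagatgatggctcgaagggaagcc
CEBPG: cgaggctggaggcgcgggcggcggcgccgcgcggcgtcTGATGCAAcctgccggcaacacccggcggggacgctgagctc
JDP2: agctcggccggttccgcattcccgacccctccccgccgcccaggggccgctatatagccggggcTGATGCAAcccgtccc
ASNS: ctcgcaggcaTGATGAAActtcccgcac
SLC1A5: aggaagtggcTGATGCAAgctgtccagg
FGF21: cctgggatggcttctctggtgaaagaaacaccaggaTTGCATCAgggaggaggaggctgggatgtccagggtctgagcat
CHAC1 and FGF21 carry the letters on the opposite strand, so they read TTGCATCA here. The first base of the match lies 209 bases before the start of the RefSeq window's gene model in CHAC1, 191 in ATF3, 97 in SLC1A5, 68 in ASNS, 54 in FGF21, 42 in CEBPG and 16 in JDP2. All 7 of these genes rose at P12 against P8 and P11, but so did most members, 32 of the 39. Members whose windows lack the letters, such as STC2 and TRIB3, were among them.

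**Figure D3:**
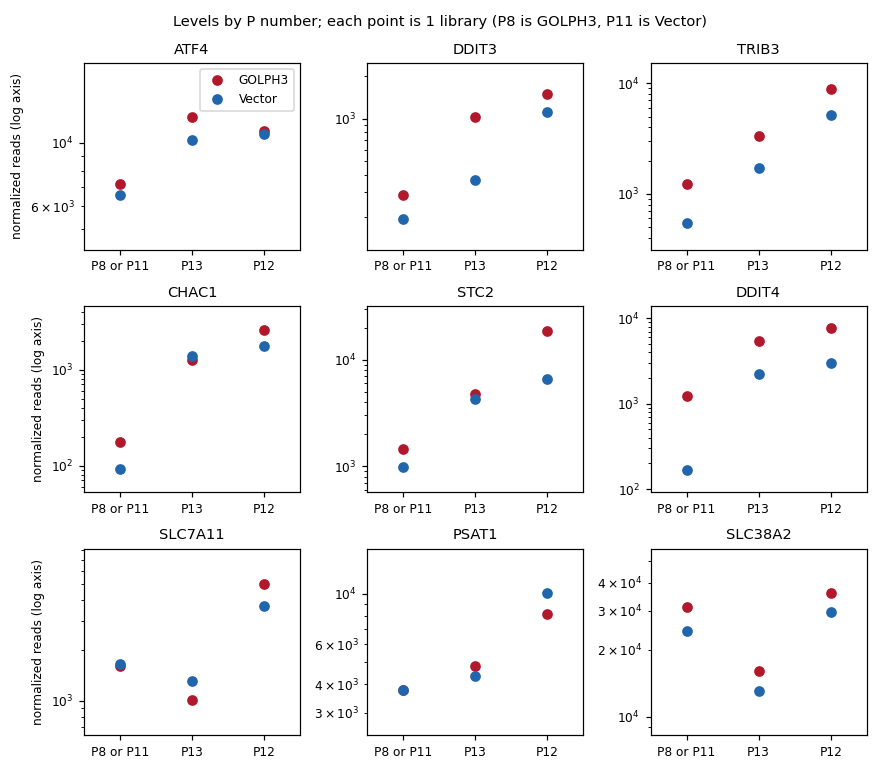
Normalized reads on a log axis for 9 members, with each point 1 library, GOLPH3-labelled in red and Vector-labelled in blue, and P8 or P11, P13 and P12 from left to right. TRIB3, CHAC1, STC2 and DDIT4 climb from left to right, ATF4 levels off after the first class, and SLC7A11 and SLC38A2 are lowest at P13.

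Among the genes of amino acid synthesis, ASNS, the enzyme that makes asparagine, had 163, 484 and 627 normalized reads in the GOLPH3-labelled libraries and 126, 225 and 491 in the Vector-labelled ones. P12 was highest and P8 and P11 lowest (log2 difference 1.94, SE 0.26, limma adjusted p = 0.00106). ASNSP1, a near copy of ASNS, had 0 normalized reads in every GOLPH3-labelled library and 8.76, 66.1 and 169 in the Vector-labelled ones. Whether counting split reads between ASNS and ASNSP1 was not tested. PHGDH, PSAT1 and PSPH catalyse the successive steps of serine synthesis. PHGDH had 1876, 3265 and 3876 normalized reads in the GOLPH3-labelled libraries and 1373, 5625 and 5100.1 in the Vector-labelled ones. The P13 and P12 libraries overlapped, and both classes were above P8 and P11 (log2 difference 1.47, SE 0.25, limma adjusted p = 0.0042). PSAT1 had 3799, 4804 and 8178 normalized reads in the GOLPH3-labelled libraries and 3778, 4342 and 10030.4 in the Vector-labelled ones, with the P12 pair above the other 4 (log2 difference 1.26, SE 0.18, limma adjusted p = 0.00176). The P13 libraries stayed near P8 and P11 for PSAT1 (limma adjusted p = 0.364).

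PSPH had 919, 954 and 1433 normalized reads in the GOLPH3-labelled libraries and 652, 778 and 1758 in the Vector-labelled ones (log2 difference 1.04, SE 0.22, limma adjusted p = 0.0124). MTHFD2, a mitochondrial folate enzyme, had 5315, 5875 and 10195 normalized reads in the GOLPH3-labelled libraries and 6724, 5004 and 10679 in the Vector-labelled ones (log2 difference 0.80, SE 0.19, limma adjusted p = 0.0227). CTH, which makes cysteine from cystathionine, had 991, 905 and 1542 normalized reads in the GOLPH3-labelled libraries and 1343, 1147 and 3139 in the Vector-labelled ones (log2 difference 0.93, SE 0.21, limma adjusted p = 0.0162). In all 3 of these genes the P12 pair was above the other 4 libraries, and P13 against P8 and P11 was not called. PCK2, the mitochondrial phosphoenolpyruvate carboxykinase, had 525, 1341 and 2525 normalized reads in the GOLPH3-labelled libraries and 339.6, 1443 and 2391 in the Vector-labelled ones, the largest P12 difference of the synthesis group (log2 difference 2.54, SE 0.21, limma adjusted p = 6.33e-05). PYCR1, the last enzyme of proline synthesis, had 2948, 5092 and 6661 normalized reads in the GOLPH3-labelled libraries and 1498, 3083 and 3340.0 in the Vector-labelled ones (log2 difference 1.17, SE 0.18, limma adjusted p = 0.00211).

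SHMT2, the mitochondrial serine hydroxymethyltransferase, had 3668, 6284 and 6124 normalized reads in the GOLPH3-labelled libraries and 3682, 4837 and 4680.2 in the Vector-labelled ones. It rose at P13 (log2 difference 0.59, SE 0.18, limma adjusted p = 0.047) and missed the threshold at P12 (limma adjusted p = 0.0868). ALDH18A1, which starts proline synthesis from glutamate, had 2545, 2554 and 2340.2 normalized reads in the GOLPH3-labelled libraries and 2507, 3261 and 2709 in the Vector-labelled ones and a log2 difference of -0.00 at P12, SE 0.18. ALDH1L2 and CBS differed mainly by label and are described with that comparison.

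Of the transporters, SLC7A5 and SLC3A2 form the large neutral amino acid exchanger. SLC7A5 had 14877, 27378 and 48468 normalized reads in the GOLPH3-labelled libraries and 8552, 13722 and 23485 in the Vector-labelled ones (log2 difference 1.58, SE 0.19, limma adjusted p = 0.000631). SLC3A2 had 5468, 11676 and 24025 normalized reads in the GOLPH3-labelled libraries and 3472, 8460.0 and 13012 in the Vector-labelled ones (log2 difference 2.02, SE 0.19, limma adjusted p = 0.000115). Both subunits followed the order P12, P13, then P8 or P11 under each label. SLC7A11, the cystine importer, which also pairs with SLC3A2, had 1617, 1012 and 5012 normalized reads in the GOLPH3-labelled libraries and 1665, 1321 and 3679.7 in the Vector-labelled ones. Its P12 pair was above the rest, and P13 was the lowest class (log2 difference 1.89, SE 0.21, limma adjusted p = 0.00308 for P12 against P13).

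SLC1A4, a neutral amino acid carrier, had 169, 290.4 and 787 normalized reads in the GOLPH3-labelled libraries and 150.1, 446 and 866 in the Vector-labelled ones (log2 difference 2.37, SE 0.25, limma adjusted p = 0.000244). SLC6A9, the glycine transporter GLYT1, which overlaps CCDC24 on the opposite strand, had 203, 335 and 1059.6 normalized reads in the GOLPH3-labelled libraries and 83.3, 380.2 and 521 in the Vector-labelled ones (log2 difference 2.5, SE 0.32, limma adjusted p = 0.000783), the largest P12 difference of the transporters. SLC1A5, a glutamine carrier, had 3505, 6973 and 10833 normalized reads in the GOLPH3-labelled libraries and 2283, 5739.6 and 7022 in the Vector-labelled ones (log2 difference 1.62, SE 0.18, limma adjusted p = 0.000417). SLC7A1, the cationic amino acid carrier, had 3958, 5162 and 11752 normalized reads in the GOLPH3-labelled libraries and 3880.3, 5831 and 10028 in the Vector-labelled ones (log2 difference 1.47, SE 0.18, limma adjusted p = 0.000685). SLC38A2, a glutamine carrier known to respond to amino acid shortage, took another course with 31130.2, 16109 and 36162 normalized reads in the GOLPH3-labelled libraries and 24279.8, 13075 and 29741 in the Vector-labelled ones. Its P13 libraries were the lowest under each label (log2 difference -0.92, SE 0.20, limma adjusted p = 0.00834 against P8 and P11), and P12 against P8 and P11 was not called (limma adjusted p = 0.47). Without the Vector-labelled P11 library the P13 difference of SLC38A2 missed the threshold.

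STC2, a secreted glycoprotein, had 1463, 4805 and 18502 normalized reads in the GOLPH3-labelled libraries and 986, 4261 and 6540.1 in the Vector-labelled ones. The GOLPH3-labelled P12 library was the highest, 12.6-fold over P8, and the Vector-labelled P12 library was 6.63-fold over P11 (log2 difference 3.19, SE 0.26, limma adjusted p = 5.61e-05). GDF15, a secreted stress cytokine, had 9399, 18778 and 17668 normalized reads in the GOLPH3-labelled libraries and 875, 5551 and 6814 in the Vector-labelled ones. P12 and P13 were alike within each label, and P12 rose against P8 and P11 (log2 difference 1.93, SE 0.36, limma adjusted p = 0.00672). Every GOLPH3-labelled library was above every Vector-labelled one. FGF21, a secreted metabolic hormone, had 1.07, 4.27 and 14.0 normalized reads in the GOLPH3-labelled libraries and 0, 6.87 and 18.5 in the Vector-labelled ones. It had 0 reads in the Vector-labelled P11 library and 1 read in the GOLPH3-labelled P8 library, so no fold is given, and P12 was the highest under each label.

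Members also had different values for where P13 stood, in contrasts that share the P13 libraries. The next 8 members were picked because limma called P12 against P13 and did not call P13 against P8 and P11. Those calls therefore follow from the choice. For PSAT1, PSPH, MTHFD2, CTH, SLC7A11, SLC7A1, CEBPG and XPOT, P12 minus P13 was 0.99, 0.88, 0.94, 1.11, 1.89, 0.98, 1.28 and 0.85 on the log2 scale. In the same order, P13 minus P8 and P11 was 0.27, 0.16, -0.14, -0.18, -0.50, 0.49, 0.21 and -0.25. For DDIT4, CHAC1, EIF4EBP1, PHGDH, GDF15, CEBPB and PYCR1, P12 minus P13 was 0.46, 0.71, 0.21, 0.05, 0.10, 0.47 and 0.25 on the log2 scale with none called. These genes are only some of the members not called there. Others had larger differences, such as SLC6A9 at 1.06 and ASNS at 0.75, or smaller ones, such as ATF4 at -0.05. The members thus do not split cleanly into groups by where P13 stood. The P12 against P13 calls rest on the P12 libraries. With either of them left out, most calls were lost, among the members and over all genes alike. That loss is therefore not particular to the members.

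In the planned P12 comparison, with the other 4 libraries as 1 group, limma called 0 of the 39 members and 0.0% of all genes. edgeR also called 0. At an unadjusted limma p under 0.05, 27 members passed, against 7.24% of all genes (1920 of 26536), and 38 of 39 had a positive log2 difference, against 51.5% of genes, with a median of 1.19 (0.02 over all genes). DESeq2 called 7 members higher (ATF3, TRIB3, SLC7A11, SLC7A1, SLC1A4, CEBPG and STC2), against 0.899% of genes. That fit counts the gap between P13 and the P8 and P11 libraries as spread. The product of P12 and label, which asks whether the P12 difference of a gene was unlike between GOLPH3 and Vector, was called in 0 members and 0.0% of genes by limma and in 0 members by edgeR and DESeq2. None of the 39 had an unadjusted limma p under 0.05, and with so few libraries that does not show equal differences: for CHAC1 the estimate was 0.15 with a 95% interval from -5.99 to 6.29.

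By label, 0 members were higher and 3 lower in the GOLPH3-labelled libraries (limma adjusted p under 0.05), where 0.953% and 4.12% of genes were called. Of 39 members, 5 had an unadjusted limma p under 0.05, a smaller share than the 17.6% of all genes (4663 of 26536). DESeq2 called 1 member higher, where it called 2.63% of genes higher (603), and edgeR called 0. CBS (ENSG00000160200, chr21:43053191-43076943), which joins homocysteine and serine in the transsulfuration route, had 1.07, 0 and 0 normalized reads in the GOLPH3-labelled libraries and 96.4, 741 and 495 in the Vector-labelled ones. That is 1 read in all under GOLPH3, and the Vector-labelled mean was 1369 times the GOLPH3-labelled level (exact Poisson 95% interval 246 to 54072, counting error only; log2 difference -8.01, SE 0.74, limma adjusted p = 3.25e-05). CBS has an almost identical copy, CBSL, between which counting can split reads; CBSL had 0, 0 and 1.65 normalized reads under GOLPH3 and 40.5, 268 and 172 under Vector, in the order P8 or P11, P13, P12.

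ALDH1L2 (ENSG00000136010, chr12:105019784-105084577), a mitochondrial enzyme that oxidises formyl-tetrahydrofolate, had 37.6, 18.1 and 41.2 normalized reads in the GOLPH3-labelled libraries and 242, 431 and 879 in the Vector-labelled ones (log2 difference -3.84, SE 0.51, limma adjusted p = 0.000512). It overlaps C12orf45 on the opposite strand, a gene with a mean of 454 normalized reads. VLDLR (ENSG00000147852, chr9:2621834-2660053), a lipoprotein receptor, had 6.44, 3.2 and 7.42 normalized reads in the GOLPH3-labelled libraries and 38.3, 118 and 116 in the Vector-labelled ones (log2 difference -3.68, SE 0.60, limma adjusted p = 0.0025). For these 3 genes the ranges of the labels did not overlap, and all 3 remained lower with each library left out. They were the only members lower without overlap, where 12.8% of genes were lower and 9.2% higher without overlap. The 8 genes high in the Vector-labelled libraries moved with them, 8 of 8 lower, while the 8 colon epithelial markers had values above 0 by label, with 2 called, and the part of either list in these results was not tested. A difference between the stable lines other than the GOLPH3 label cannot be told apart from that label.

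GDF15 was the only member higher without overlap. Its log2 difference by label was 2.19 (SE 0.63, limma adjusted p = 0.0745), with a DESeq2 adjusted p of 0.0171 and an edgeR adjusted p of 0.12. DDIT4 had the next largest estimate, 1.86 (SE 0.93, limma adjusted p = 0.338). Across the 39 members the median label difference was 0.25, beside 0.02 over all genes. Of the 39, 27 were positive, as were 13512 of the 26536 genes tested.

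**Figure D4:**
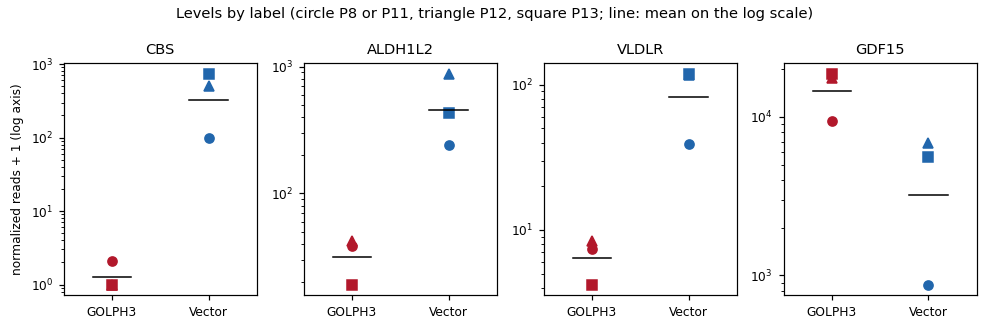
Normalized reads + 1 on a log axis for CBS, ALDH1L2, VLDLR and GDF15, by label, with each mark 1 library (circle P8 or P11, triangle P12, square P13) and a line at the mean of the log values. The labels do not overlap in any of the 4 genes, with GDF15 higher and the other 3 lower under GOLPH3.

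With the 3 P classes held as a block, 13 members were higher and 4 lower under GOLPH3 (limma adjusted p under 0.05), where 9.43% and 11.5% of genes were called. The higher ones were DDIT3, DDIT4, TRIB3, CEBPB, JDP2, PPP1R15A and EIF4EBP1 among the regulators, PYCR1 in synthesis, SLC7A5, SLC3A2 and SLC1A5 in transport, and STC2 and GDF15 among secreted proteins. CTH joined the 3 lower ones (log2 difference -0.60, SE 0.17, limma adjusted p = 0.0245). GDF15 (log2 difference 2.19, SE 0.29, limma adjusted p = 0.000258) and DDIT4 (log2 difference 1.86, SE 0.25, limma adjusted p = 0.000273) had the largest differences, and ATF4 was not called (log2 difference 0.14, SE 0.15, limma adjusted p = 0.561). This fit treats P8 and P11 as equal: for that pair, label and P number cannot be told apart. Over all 39 members, 25 were higher under GOLPH3 within P12, 22 within P13 and 30 at P8 against P11. The median log2 differences were 0.35, 0.17 and 0.45. The same shares over all genes were not computed, so these counts do not set the members apart from other genes. Leaving out either P12 library reduced the 13 to 7. The genes called higher in all fell from 2503 to 1193 without the GOLPH3-labelled one and to 1252 without the Vector-labelled one.

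**Figure D5:**
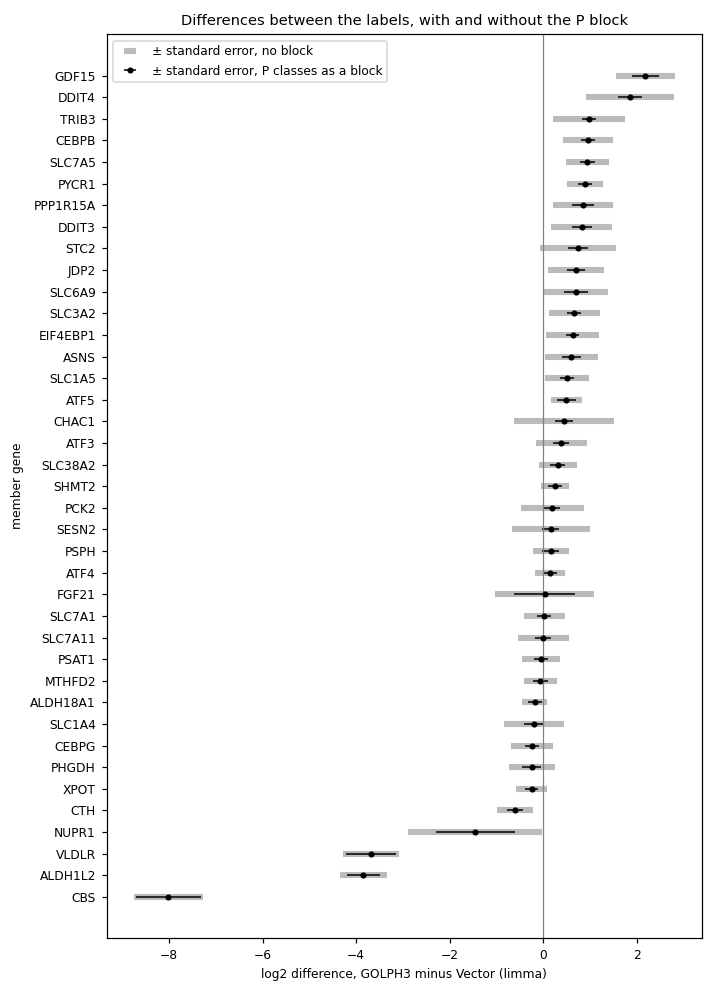
Log2 differences, GOLPH3-labelled minus Vector-labelled, for each of the 39 members, with grey bars for the standard error without a block and black bars for the standard error with the 3 P classes as a block. Standard errors shrink under the block for genes that followed P number, and CBS, ALDH1L2 and VLDLR lie far to the left under both.

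Other genes around the response were read from lists written with earlier results known. At P12 against P8 and P11, 6.08% of all genes rose and 3.4% fell. Of 17 genes for the eIF2 kinases, eIF2 and eIF2B, 0 rose and 3 fell at P12 against P8 and P11, all 3 of them eIF2 kinases: EIF2AK1 (log2 difference -0.74, SE 0.19, limma adjusted p = 0.0288), EIF2AK2 (log2 difference -0.92, SE 0.18, limma adjusted p = 0.00823) and EIF2AK4 (log2 difference -0.70, SE 0.19, limma adjusted p = 0.0367). EIF2AK3, the kinase PERK of the endoplasmic reticulum, was not called there and fell at P13 (log2 difference -0.71, SE 0.22, limma adjusted p = 0.0457). These are mRNA levels and say nothing of kinase activity. Of the 19 cytosolic aminoacyl-tRNA synthetase genes tested, which charge tRNAs with amino acids, 8 rose and 0 fell at P12 (AARS1, FARSA, GARS1, MARS1, SARS1, TARS1, WARS1 and YARS1), with AARS1 at 4722, 8844 and 14116 normalized reads in the GOLPH3-labelled libraries and 3704, 6854 and 10388 in the Vector-labelled ones (log2 difference 1.53, SE 0.17, limma adjusted p = 0.000447). At P12 against P13, 7 of them rose and QARS1 fell. By label CARS1 was higher under GOLPH3 (log2 difference 1.64, SE 0.40, limma adjusted p = 0.0349).

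Of 18 other folate, glycine, methionine and transamination enzymes, 3 rose (MTHFD1L, GOT1 and GPT2) and GCSH fell at P12 against P8 and P11. GOT1, the cytosolic aspartate aminotransferase, had 1948, 3208 and 7845 normalized reads in the GOLPH3-labelled libraries and 1495, 1811 and 5149.5 in the Vector-labelled ones (log2 difference 1.9, SE 0.18, limma adjusted p = 0.000141). Of 16 other amino acid transporters tested, SLC43A1 rose and 5 fell at P12 (SLC1A1, SLC1A3, SLC6A6, SLC7A2 and SLC36A4), beside 7 of 8 member transporters that rose. SLC6A15 was lower under GOLPH3, at 2.15, 0 and 0 normalized reads in the GOLPH3-labelled libraries and 579.5, 827 and 763 in the Vector-labelled ones (log2 difference -8.93, SE 0.56, limma adjusted p = 2.53e-06).

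Of 14 endoplasmic reticulum chaperones and targets of IRE1 or ATF6, the other branches of the unfolded protein response, XBP1 rose and HSP90B1, DNAJC3 and MANF fell at P12 against P8 and P11. XBP1, the transcription factor spliced by IRE1, had 1694, 1436 and 3390.0 normalized reads in the GOLPH3-labelled libraries and 2137, 2572 and 4879.8 in the Vector-labelled ones (log2 difference 1.1, SE 0.19, limma adjusted p = 0.00424). HSPA5, the chaperone BiP, had 40759, 34047 and 51469 normalized reads in the GOLPH3-labelled libraries and 51535, 24649 and 45742 in the Vector-labelled ones and was not called (log2 difference 0.08, SE 0.24, limma adjusted p = 0.879). The median log2 difference at P12 was -0.46 for these 14 genes, against 1.62 for the members. GOT1 and SLC6A15 were named by a rule on the smallest p, and the other genes of these lists after their values were seen.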

How the data were processed

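Per the labels and methods, RNA was taken up in Trizol and sequenced on an Illumina platform. Submitters' processing notes name fastp 0.20.0, HISAT2 2.1.0, featureCounts 1.6.1, Cufflinks, DESeq2 and GRCh38; the annotation release and strand setting are not given in the sources used here. The deposited values are a signal, each library's reads over its own size factor: 99.98 to 100.0% of nonzero values were whole multiples of 1 read (tolerance 0.01 read), and the multiples were taken as reads. The table's 44 repeated identifier rows were added to the first. 

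Groups came from the labels. Members and lists were chosen with earlier results of these data known. limma 3.58.1 (R 4.3.3, trend) was fitted to log2(value + 1) of the 26536 genes that reached 1 normalized read in 3 or more libraries, with Benjamini-Hochberg adjustment over all of them; fold changes on this scale understate low genes. Fits were by label, by P12 with label, by 3 P classes with label, and by the product of P12 and label. The rule for named genes asked for values in every library of 12 listed members, every called member and the largest change of each role; here all 39 have them. From the other lists it took the 3 genes with the smallest p by P12 and the 2 by label, of which 1 is not reported here. edgeR 4.0.16 (quasi-likelihood) and DESeq2 1.42.0 on recovered reads, other pseudocounts, filters and scalings, blocks, and each library left out served as alternatives; scripts were tested on simulated data. Same-numbered replicates were not paired: their deviations from the group means correlated at -0.386, -0.240 and 0.447, while those of the P12 pair, the P13 pair and P8 with P11 correlated at 0.465, 0.447 and 0.512. No library was a copy of another (chi-square per degree of freedom at least 74.9 within groups).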

Additional observations from a re-analysis of the deposited data

How the results depend on the processing

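CBS, ALDH1L2 and VLDLR kept their lower call by label under every alternative run. The number of members higher by label was 0 in limma and edgeR, 1 (GDF15) in DESeq2, with no filter, and under the unadjusted rule (p under 0.05 and a log2 difference over 1), 13 with the P classes as a block, and 0 to 1 with a library left out (1 without the GOLPH3-labelled P8 or the Vector-labelled P12 library, GDF15 both times). Under the replicate block, 0 were higher and 3 lower, with 178 and 903 genes called in all against 253 and 1093 without it; the replicate numbers do not pair the samples. Over all genes the label calls were 603 higher in DESeq2 and 159 with a pseudocount of 0.1; leaving out a library gave 56 to 404 higher and 346 to 1124 lower.

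The members higher at P12 against the other 4 libraries numbered 0 in limma and 7 in DESeq2, 24 under the unadjusted rule, 17 against P13 only, 32 against P8 and P11 only and 31 with label plus replicate block, whose numbers set P12 against P8 and P11. The following were chosen after seeing the data. The 32 ranged from 28 to 32 over the pseudocount, filter, scaling and tool alternatives. The genes called higher in all were 1613 in the main fit and 924 to 1946 over those alternatives. Leaving out either P12 library lowered the calls over the members and over all genes. The 17 against P13 became 4 with a pseudocount of 0.1, 6 under quantile normalization and 0 to 25 with a library left out (0 without the GOLPH3-labelled and 6 without the Vector-labelled P12 library). The 13 higher by label under the P block ranged from 7 to 14 with a library left out and were 9 under quantile normalization. The genes called higher in all were 2503 in the main fit, 1193 to 2568 with a library left out and 2348 under quantile normalization. The members lower at P13 numbered 0 to 2 with a library left out (0 without the Vector-labelled P11 library, 2, with SLC7A11, without the Vector-labelled P13 library). The cause of these changes was not tested. With 2 libraries per P class, small differences were not detectable.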

Other observations

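Some stress genes outside the member list also differed by P number, in both directions. Of 11 p53 targets, 4 rose at P12 against P8 and P11 (CDKN1A, TP53I3, BBC3 and TNFRSF10B) and ZMAT3, SESN1 and RRM2B fell. Of all genes, 6.08% rose and 3.4% fell there. The median log2 difference of the p53 list was 0.02, beside 0.04 over all genes. TNFRSF10B, the death receptor DR5, had 3649, 6363 and 13220.1 normalized reads in the GOLPH3-labelled libraries and 2839.6, 3200.2 and 7165 in the Vector-labelled ones, in the order P8, P13, P12 and P11, P13, P12 (log2 difference 1.6, SE 0.20, limma adjusted p = 0.000663). BBC3, the cell death protein PUMA, had 469, 1581 and 1949 normalized reads in the GOLPH3-labelled libraries and 109.6, 569.8 and 564 in the Vector-labelled ones (log2 difference 2.2, SE 0.22, limma adjusted p = 0.000165). At P13 against P8 and P11, CDKN1A, TP53I3, BBC3, BAX and FDXR rose, and MDM2, FAS and RRM2B fell. Of all genes, 10.0% rose and 6.84% fell there. The list did not move one way.

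Of 10 hypoxia targets, VEGFA rose at P12 against P8 and P11, and PFKFB4, BNIP3 and EGLN3 fell. The median log2 difference of the hypoxia list was -0.42. VEGFA, a growth factor for blood vessels, had 1335, 2839 and 4869 normalized reads in the GOLPH3-labelled libraries and 1134, 1975 and 2779 in the Vector-labelled ones (log2 difference 1.58, SE 0.19, limma adjusted p = 0.000583). PFKFB4, a regulator of glycolysis, had 662, 769.7 and 154 normalized reads in the GOLPH3-labelled libraries and 331, 320.1 and 161 in the Vector-labelled ones (log2 difference -1.57, SE 0.30, limma adjusted p = 0.00799). By label NDRG1 was higher under GOLPH3 (log2 difference 1.67, SE 0.40, limma adjusted p = 0.0328). Summed marker levels over the libraries were 478 to 1508 normalized reads for the 6 fibroblast genes, 13.1 to 34.4 for the 3 endothelial genes and 0.825 to 54.1 for the 4 leukocyte genes.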
